A study of Mus musculus with 10 samples.

Results

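The acute phase genes Saa1, Saa2, Saa3, Saa4, Lcn2, Orm1, Orm2, Hp, Cp and Apcs were examined in RNA-seq of mouse liver. They were chosen by name, as genes for serum proteins of the acute phase response, with earlier results of these data known. All 10 were among the 41388 genes listed in the count files. Livers came from C57B/6J mice of about 12 weeks of age, with 1 library per mouse. WT fasting mice (n = 3) were fasted for 24 h, NAMPT LKO fasting mice (n = 5) were littermates fasted for the same time, and WT fast-refeed mice (n = 2) were fasted for 22 h and then refed for 2 h. All of these mice carried floxed Nampt alleles as the study describes them. In NAMPT LKO mice an Albumin-driven Cre removes Nampt, an enzyme of NAD synthesis, in hepatocytes, while the other cells of the liver keep the gene. The study's text gives a shorter fast and mice fed at random as controls, and the sample labels were followed here. There was no refed NAMPT LKO group, so the effect of refeeding could be compared in WT livers only.

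The acute phase response is the change in liver protein secretion that follows infection or injury. Interleukin-6 acts through STAT3, and interleukin-1 and tumor necrosis factor act through NF-kB, on hepatocytes, where the C/EBP factors also bind the promoters of many acute phase genes. Saa1 and Saa2 encode serum amyloid A proteins that travel on high-density lipoprotein and are among the most inducible products of the mouse liver, whereas Saa4 is made constitutively.

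Total counts ranged from 30603080 to 43434139 per library. The hepatocyte markers were present in every library, with a summed level of 67833 to 101123 CPM over 7 genes, where CPM is the count scaled to a common library total. Nampt stood at 11.8 to 15.3 TMM-normalized CPM in the 5 NAMPT LKO livers, below the 63.0 to 141 of the 3 WT fasting livers. NAMPT LKO fasting mouse 5 stood apart by its mitochondrial share, 21.1% of counts against 7.42 to 12.9% in the other 9 libraries. NAMPT LKO fasting mouse 3 stood apart in the acute phase genes themselves, as described below, and results that rest on it are given with and without it. In bulk liver, fewer cells of a type and less RNA per cell cannot be told apart.

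The Saa genes lie together on chromosome 7 of GRCm38, and Saa1 (chr7:46740501-46742980, minus strand) and Saa2 (chr7:46751833-46754314, plus strand) are near copies of each other. Promoter windows of 250 bases before the RefSeq start (GRCm38.p6) were found for Saa1, Saa2, Saa3, Saa4, Lcn2, Orm2, Cp and Apcs. Within these windows Saa1 and Saa2 were identical at 94.8% of aligned positions, whereas Saa1 and Saa4 were identical at 49.5%. The stretches from 200 to 45 bases before the start are printed for 5 genes, to set Saa1 and Saa2, which differed most between livers, beside Saa4 of the same cluster, and because Orm2 holds 2 C/EBP matches and Apcs lacks the C/EBP match. Capitals mark matches, on either strand, to the C/EBP motif TTNNGNAA, the NF-kB motif (GGG, 3 bases of any kind and TTCC), the STAT motif TTCNNNGAA and the interleukin-6 motif CTGGGAA.
Saa1 (chr7:46743025-46743180, minus strand): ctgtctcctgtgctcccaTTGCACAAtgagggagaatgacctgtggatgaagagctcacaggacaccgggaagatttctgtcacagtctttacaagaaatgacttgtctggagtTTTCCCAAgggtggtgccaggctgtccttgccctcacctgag
Saa2 (chr7:46751633-46751788, plus strand): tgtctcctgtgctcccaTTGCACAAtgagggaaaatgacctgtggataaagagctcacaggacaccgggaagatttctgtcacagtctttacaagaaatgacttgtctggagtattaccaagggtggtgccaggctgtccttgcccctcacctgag
Saa4 (chr7:46732648-46732803, minus strand): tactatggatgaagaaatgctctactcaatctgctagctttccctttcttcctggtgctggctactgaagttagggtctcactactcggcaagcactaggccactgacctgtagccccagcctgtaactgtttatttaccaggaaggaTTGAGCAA
Orm2 (chr4:63362249-63362404, plus strand): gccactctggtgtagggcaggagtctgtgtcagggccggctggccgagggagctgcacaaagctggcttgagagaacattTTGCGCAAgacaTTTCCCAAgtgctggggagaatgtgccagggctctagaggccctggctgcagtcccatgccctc
Apcs (chr1:172895099-172895254, minus strand): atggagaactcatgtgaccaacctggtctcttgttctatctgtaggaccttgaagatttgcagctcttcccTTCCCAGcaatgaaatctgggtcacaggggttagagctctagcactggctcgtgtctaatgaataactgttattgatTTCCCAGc

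The C/EBP letters were found in 7 of the 8 genes with a window, against 36.8% of 32851 mouse promoter windows of the same length. Saa3 had 4 matches, Saa1, Saa4 and Orm2 had 2 each and Saa2 had 1. For Saa4, the match at 245 to 238 bases before the start lies upstream of the printed stretch. Saa1 and Saa2 shared the word TTGCACAA, and Saa1 and Orm2 shared TTTCCCAA. The gene without a C/EBP match was Apcs, which had 2 matches to the interleukin-6 motif and, upstream of the printed stretch, 1 match to the STAT motif. These motifs were found in 9.10% and 7.02% of all windows. The NF-kB letters were found in 0 of the 8 genes and in 4.65% of all windows. No matches of different motifs overlapped in these genes, and a match is a description of letters, not of a bound site.

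Per length, Hp was the most abundant of the 10 genes and Lcn2 the least in each group. Haptoglobin, which binds free hemoglobin in plasma, had a median of 2749 RPKM (CPM divided by the exon length in kilobases) in WT fasting livers. It was followed by Orm1 at 370 RPKM, Saa4 at 132 RPKM and Cp at 91.7 RPKM, and none of these neighbours overlapped in that group. Below them came Saa1 at 69.4, Apcs at 31.3, Orm2 at 16.7, Saa2 at 16.4, Saa3 at 11.9 and Lcn2 at 9.55 RPKM. Among these lower genes the ranges of neighbours overlapped in WT fasting livers, except those of Apcs and Orm2. The first 4 places were the same in WT fast-refeed and NAMPT LKO fasting livers. In the latter group the ranges of Saa4 and Cp overlapped, and the medians hide 1 liver in which Saa1 and Saa2 reached 5514 and 5264 RPKM, above its Hp value of 4733 RPKM.

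**Figure D1:**
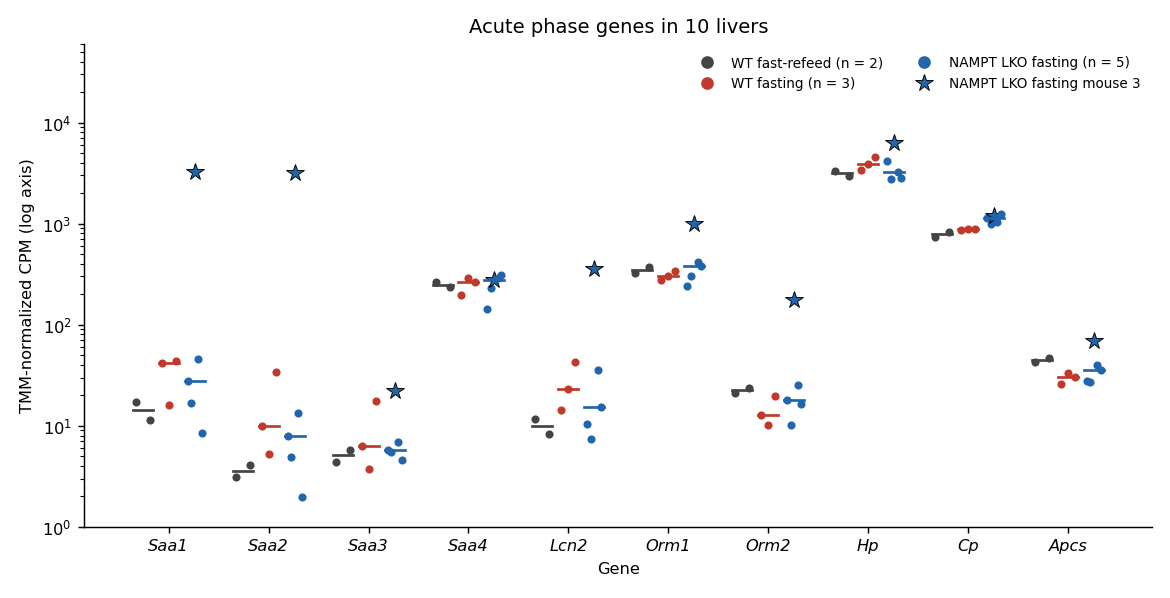
TMM-normalized CPM (y axis, log scale) of each acute phase gene (x axis) in 2 WT fast-refeed, 3 WT fasting and 5 NAMPT LKO fasting livers, 1 point per mouse, with a bar at each group's median. The star marks NAMPT LKO fasting mouse 3, which lies above all other livers for 8 of the 10 genes and within the range of its group for Saa4 and Cp.

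The difference among the 10 livers that stood out was 1 mouse, NAMPT LKO fasting mouse 3. On the TMM-normalized scale, Saa1 was at 3276 CPM in this liver and at 27.7, 16.9, 45.5 and 8.40 CPM in NAMPT LKO fasting mice 1, 2, 4 and 5. It was at 41.8, 16.0 and 44.1 CPM in WT fasting mice 1 to 3 and at 17.2 and 11.3 CPM in WT fast-refeed livers. Apart from mouse 3, the ranges of the groups overlapped, and mouse 3 was 190 times the median of the other 9 livers.

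Saa2 was at 3153 CPM in the same liver and at 7.94, 4.87, 13.2 and 1.98 CPM in NAMPT LKO fasting mice 1, 2, 4 and 5. The WT fasting livers had 9.96, 5.24 and 33.9 CPM, and the WT fast-refeed livers 3.14 and 4.06 CPM. Mouse 3 was thus 602 times the median of the others, and WT fasting mouse 3 was the next highest liver. All 3 WT fasting livers lay above both WT fast-refeed livers, but these groups did not overlap, in either direction, for 49.7% of all genes.

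Saa3, a serum amyloid A that is also made by macrophages and adipose tissue, ranged less widely. It was at 22.3 CPM in NAMPT LKO fasting mouse 3, 17.4 CPM in WT fasting mouse 3 and 3.75 to 6.84 CPM in the other 8 livers. Saa4, the constitutive member, was at 278 CPM in NAMPT LKO fasting mouse 3, within the 143 to 311 CPM of the other 9 livers. The 4 Saa genes therefore split in this liver into Saa1 and Saa2, which were 190 and 602 times the median of the other livers, Saa3 at 3.89 times and Saa4 at 1.06 times.

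Lcn2 encodes lipocalin 2, which withholds iron from bacteria by binding their siderophores. It was at 358 CPM in NAMPT LKO fasting mouse 3 and at 10.5, 7.34, 35.3 and 15.5 CPM in mice 1, 2, 4 and 5 of that group. The WT fasting livers had 14.3, 23.1 and 42.8 CPM and the WT fast-refeed livers 11.6 and 8.23 CPM. Lcn2 was 24.9 times the median of the others in mouse 3. All 3 WT fasting livers lay above both WT fast-refeed livers, where 49.7% of all genes had no overlap.

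Orm1 and Orm2 encode orosomucoids, plasma carriers of lipophilic compounds. Orm2 was at 174 CPM in NAMPT LKO fasting mouse 3, at 18.0, 10.2, 25.3 and 16.6 CPM in mice 1, 2, 4 and 5, at 12.9, 10.2 and 19.7 CPM in WT fasting livers and at 21.1 and 23.8 CPM in WT fast-refeed livers. Orm1 was at 1001 CPM in mouse 3 and at 239 to 413 CPM in the other 9 livers. The ratios of mouse 3 to the median of the others were 9.63 for Orm2 and 3.10 for Orm1. In Orm2 the 3 WT fasting livers lay below both WT fast-refeed livers, where 49.7% of all genes had no overlap.

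Apcs encodes serum amyloid P component, a pentraxin that serves as an acute phase protein in mice. It was at 69.3 CPM in NAMPT LKO fasting mouse 3, 2.09 times the median of the others, and at 27.9, 27.2, 39.7 and 35.4 CPM in mice 1, 2, 4 and 5. It was at 26.1, 33.2 and 30.3 CPM in WT fasting livers and at 43.1 and 47.4 CPM in WT fast-refeed livers. The fasted WT livers were thus the lower group without overlap, as 49.7% of all genes had no overlap here. Hp was at 6242 CPM in mouse 3 and at 2749 to 4598 CPM in the other 9 livers, a ratio of 1.89.

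NAMPT LKO fasting mouse 3 was the highest of the 10 livers for 8 of the 10 acute phase genes, whereas it was the highest for 7.16% of all 13444 genes tested. It was at least 2-fold above the median of the other livers, on the log2(CPM + 1) scale, for 7 of the 10 genes and for 0.476% of all genes. The 10 genes took 1.60% of all counts in this liver and 0.404 to 0.636% in the other 9. This liver was singled out by these same values, and the genes were chosen with earlier results of these data known. These shares, and those of the lists below, are therefore a description only. What set this liver apart was not tested.

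Other acute phase genes were read in the same liver from a list of 30, of which 28 passed the filter on low values. Mouse 3 was the highest liver for 13 of the 28 and at least 2-fold above the median of the others for 6. These 6 were Itih4, a heavy chain of the inter-alpha-trypsin inhibitor family, at 4.81 times the median, the metallothioneins Mt2 and Mt1 at 3.92 and 3.56 times, Orm3 at 3.14 times, the heme carrier Hpx at 2.72 times and Lrg1 at 2.23 times. The list did not move as a whole, since Crp was at 0.98 times the median and Hamp, the iron hormone hepcidin, at 0.67 times. Of 10 negative acute phase genes, whose proteins fall in the response, mouse 3 was the lowest liver for 4, against 7.37% of all genes. These were Alb at 0.67, Pon1 at 0.79, Ttr at 0.81 and Rbp4 at 0.85 times the median. Apoa1 at 1.34, Serpina6 at 1.2, Ahsg at 1.16 and Fetub at 1.15 times lay above it, and the median log2 difference of the list was -0.10.

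**Figure D2:**
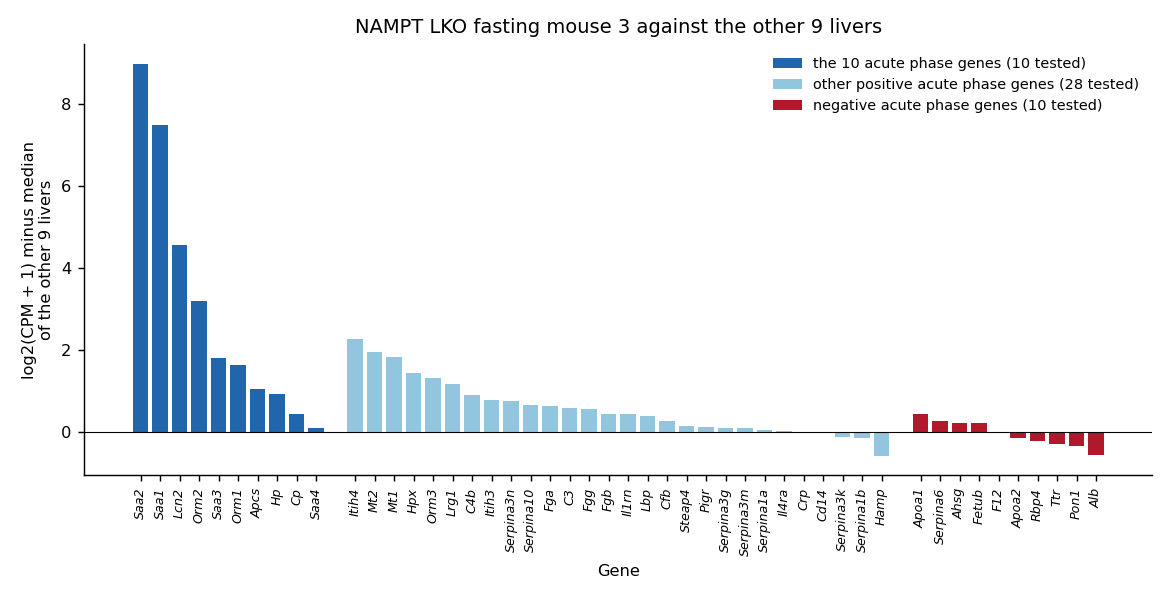
Difference between NAMPT LKO fasting mouse 3 and the median of the other 9 livers on the log2(CPM + 1) scale (y axis) for the 10 acute phase genes, 28 other positive and 10 negative acute phase genes (x axis), 1 bar per gene with no error since it is 1 liver. Saa2, Saa1, Lcn2 and Orm2 have the tallest bars, Itih4 leads the other positive genes and Alb has the lowest bar among the negative ones.

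Upstream genes of the response were read in this liver too, which was the highest for 7.16% of all genes. The lists are short beside that share, so their counts do not tell whether upstream genes differed. Of 10 cytokines listed, 4 passed the filter (Il6 did not), and mouse 3 was the highest liver for 0 of them. It was the highest for 0 of 16 signalling and transcription factor genes, with Cebpd, a C/EBP factor induced in inflammation, at 0.94 times the median of the others and Cebpb at 0.85 times. It was the highest for 2 of 10 receptors, among them the interleukin-1 receptor Il1r1 at 1.75 times. It was also the highest for 2 of 10 feedback targets of STAT3 and NF-kB, namely Socs3, an inhibitor of cytokine signalling, at 2.11 times and the kinase Pim1 at 1.92 times. Among receptors and partners of the acute phase proteins, Cd163, the haptoglobin-hemoglobin receptor of macrophages, was at 1.87 times.

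Markers of other cell types were read beside these values. Neutrophils also make Lcn2, and the summed level of 10 neutrophil markers was 1.85 CPM in NAMPT LKO fasting mouse 3 and 0.505 to 2.83 CPM over all 10 livers, with 1 to 6 of the markers at 0 and 1 of 10 above the filter. The summed level of 10 Kupffer cell and macrophage markers was 457 CPM in this liver and 579 CPM in WT fasting mouse 3, against 227 to 354 CPM in the other 8, with none at 0. The part of macrophages in the values of these 2 livers was not tested. The hepatocyte markers had their lowest sum, 67833 CPM, in NAMPT LKO fasting mouse 3, mainly through Alb, and 5 of the 7 lay within the range of the other livers.

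The ratio of the paired genes also differed in this liver. Saa2 made up 49.0% of the counts on Saa1 and Saa2 together in NAMPT LKO fasting mouse 3 (Wilson 95% interval 48.9 to 49.2%, of 269469 counts) and 43.5% in WT fasting mouse 3 (41.8 to 45.1%, of 3444 counts). In the other 8 livers the share was 15.4 to 26.3%. The livers with the largest Saa2 values thus had nearly even counts of the pair, while in the others Saa1 was the more abundant. Orm2 made up 14.8% of the counts on Orm1 and Orm2 in NAMPT LKO fasting mouse 3 (14.5 to 15.1%, of 49247 counts) and 3.22 to 7.0% in the other 9 livers. The intervals cover counting error only.

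These shares depend on how reads were assigned. Over all annotated transcripts of the gene, Saa1 shared 31.5% of its 50-base words, the length of the reads, with other genes. Saa2 shared 30.0%, and reads from shared words have no unique place. The words numbered 2519 for Saa1 and 2616 for Saa2, more than their counted lengths of 605 and 610 bases can hold. The share of the counted bases was therefore not measured for this pair. The shares of words were 20.4% for Orm1 and 22.7% for Orm2, and 4.15% or less for the other 6 genes. The same stretches are lost in every library, and levels of Saa1, Saa2, Orm1 and Orm2 are uncertain by an amount not measured here.

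**Figure D3:**
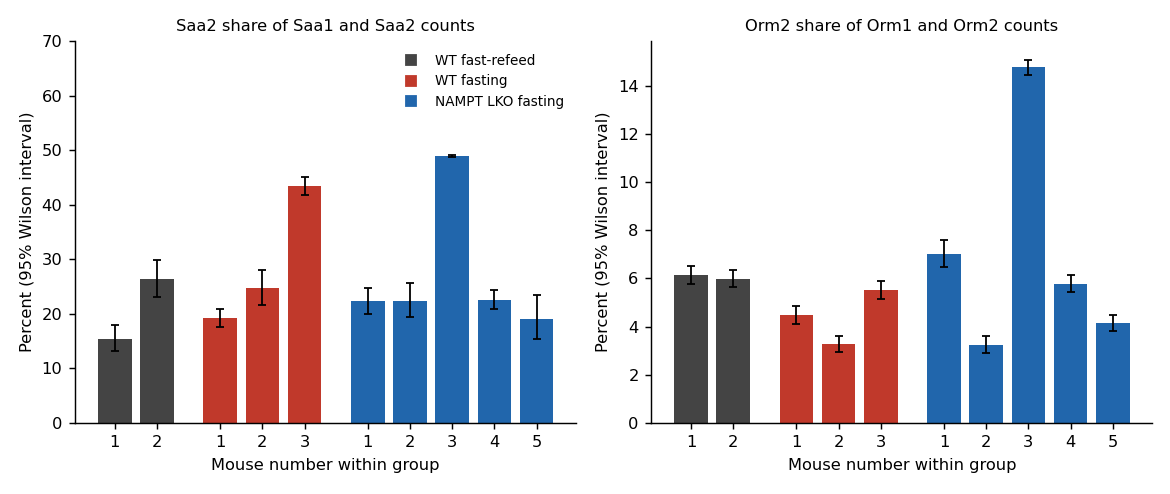
Share of Saa2 in the counts on Saa1 and Saa2 (left) and of Orm2 in the counts on Orm1 and Orm2 (right), in percent (y axes), in each of the 10 livers (x axes, mouse number within the group), with 95% Wilson intervals that cover counting error only. NAMPT LKO fasting mouse 3 has the highest bar in both panels, at 49.0% and 14.8%, and WT fasting mouse 3 the next highest for Saa2.

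WT fasting livers (n = 3) were compared with WT fast-refeed livers (n = 2), whose mice were refed for 2 h after a fast of 22 h. No group was fed throughout, so fasting against the fed state could not be examined. No gene of the 10 was called by edgeR's quasi-likelihood test after Benjamini-Hochberg adjustment, against 7.04% of all 13444 genes (2.68% higher and 4.36% lower in fasting), and 0 of 10 had an unadjusted p under 0.05, against 22.3% of all genes. edgeR's exact test and voomWithQualityWeights also called 0 of the 10, against 8.87 and 24.8% of all genes, and DESeq2 called 0 of the 6 genes to which it gave an adjusted p, against 12.3% of all genes. The log2 fold changes were positive for 7 genes, with a median of 0.25. The largest were those of Saa2 (2.19, SE 2.68, adjusted p = 0.681), Lcn2 (1.43, SE 1.47, adjusted p = 0.612) and Saa1 (1.25, SE 2.11, adjusted p = 0.778). The groups did not overlap for 6 of the 10 genes, against 49.7% of all genes. Saa2, Lcn2, Hp and Cp were the higher and Orm2 and Apcs the lower in WT fasting over WT fast-refeed livers.

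The spread behind these standard errors is shared by all 10 libraries and holds NAMPT LKO fasting mouse 3. Without that library, Saa2 had a log2 fold change of 2.18 (SE 0.87, adjusted p = 0.180), Lcn2 of 1.43 (SE 0.64, adjusted p = 0.237) and Apcs of -0.61 (SE 0.18, adjusted p = 0.0803) in edgeR's quasi-likelihood test. In that fit 0 of 10 genes were called, against 6.01% of all genes. An unadjusted p under 0.05 was given to 2 of the 10 (Saa2 and Apcs) and to 2870 of all 13403 genes. In a fit of the 5 WT libraries alone, Apcs passed the threshold at a log2 fold change of -0.61 (adjusted p = 0.0311, edgeR's quasi-likelihood test), where 12.6% of all genes were called. The fasting values also lean on WT fasting mouse 3, without which they were 1.07 for Saa2 and 0.91 for Lcn2. This mouse decided the sign of Saa3, whose log2 fold change of 0.85 (SE 0.75, adjusted p = 0.548, edgeR's quasi-likelihood test) was -0.03 without this mouse.

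Of 87 other genes listed around the response and tested, 8 (9.2%) were called between WT fasting and WT fast-refeed livers, against 7.04% of all genes. Cebpd rose by a log2 fold change of 2.03 (SE 0.22, adjusted p = 0.000733) and Cebpb by 1.48 (SE 0.31, adjusted p = 0.0168) in WT fasting over WT fast-refeed livers by edgeR's quasi-likelihood test, and they were the 2 of 16 signalling and transcription factor genes called. Both encode C/EBP factors. Of the 10 acute phase genes, 0 were called in this comparison, and a link between these factors and those genes was not tested. Nfkbia, an inhibitor and target of NF-kB, rose by 1.22 (adjusted p = 0.00205), the 1 of 10 feedback targets called, and Lifr, the leukemia inhibitory factor receptor, fell by 0.91 (adjusted p = 0.0127), the 1 of 10 receptors called, in the same test. Of the 28 other positive acute phase genes, 4 rose and 0 fell in the same test, namely Il1rn, the interleukin-1 receptor antagonist, by 2.40 (adjusted p = 0.0183), the lipopolysaccharide-binding protein Lbp by 0.74 (adjusted p = 0.0168), Mt1 by 2.33 (adjusted p = 0.0247) and Mt2 by 2.84 (adjusted p = 0.0359). The 4 calls on this list became 0 without either of the WT fast-refeed mice, when calls over all genes fell from 946 to 194 and 107, and 1 without WT fasting mouse 2. None of the 10 negative acute phase genes, 4 cytokines or 11 receptors and partners of the acute phase proteins was called.

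Whether loss of hepatocyte NAMPT changed these genes in fasting was asked by comparing NAMPT LKO fasting (n = 5) with WT fasting (n = 3) livers. None of the 10 genes was called by edgeR's quasi-likelihood test, against 0.00744% of all genes (1 of 13444), and 1 of 10 had an unadjusted p under 0.05, against 6.03% of all genes. edgeR's exact test and voomWithQualityWeights called 0 of the 10 as well, against 0.179 and 0.00744% of all genes. DESeq2 called 0 of 6, against 0.183% of all genes, and gave no adjusted p to Saa1, Saa2, Lcn2 and Orm2. With so few genes called, these counts do not set the 10 genes apart. The fitted log2 fold changes were 5.28 for Saa2 (SE 2.5, adjusted p = 0.837), 4.31 for Saa1 (SE 1.99, adjusted p = 0.832), 1.77 for Orm2 (SE 0.86, adjusted p = 0.837) and 1.67 for Lcn2 (SE 1.18, adjusted p = 0.842). These values were carried by NAMPT LKO fasting mouse 3.

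Without that mouse, the log2 fold changes were -1.22 for Saa2 (SE 0.66, adjusted p = 0.822), -0.46 for Saa1 (SE 0.51, adjusted p = 0.854), -0.64 for Lcn2 (SE 0.51, adjusted p = 0.822) and 0.30 for Orm2 (SE 0.30, adjusted p = 0.841) in edgeR's quasi-likelihood test. Saa1, Saa2 and Lcn2 therefore turned from higher to lower fitted values, with WT fasting mouse 3, the highest WT fasting liver for each, still in the fit. Without both mice, an alternative chosen after seeing the data, the values were -0.23 for Saa1, -0.12 for Saa2 and -0.12 for Lcn2. Over the 10 genes, 8 values were positive with all libraries, with a median of 0.52, and 4 were positive without NAMPT LKO fasting mouse 3 alone, with a median of -0.16. The 95% intervals without it ran from -2.69 to 0.25 for Saa2 and from -1.60 to 0.67 for Saa1. A fall of several fold in Saa2 thus lay within its interval, and whether these mice could detect it was not tested.

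**Figure D4:**
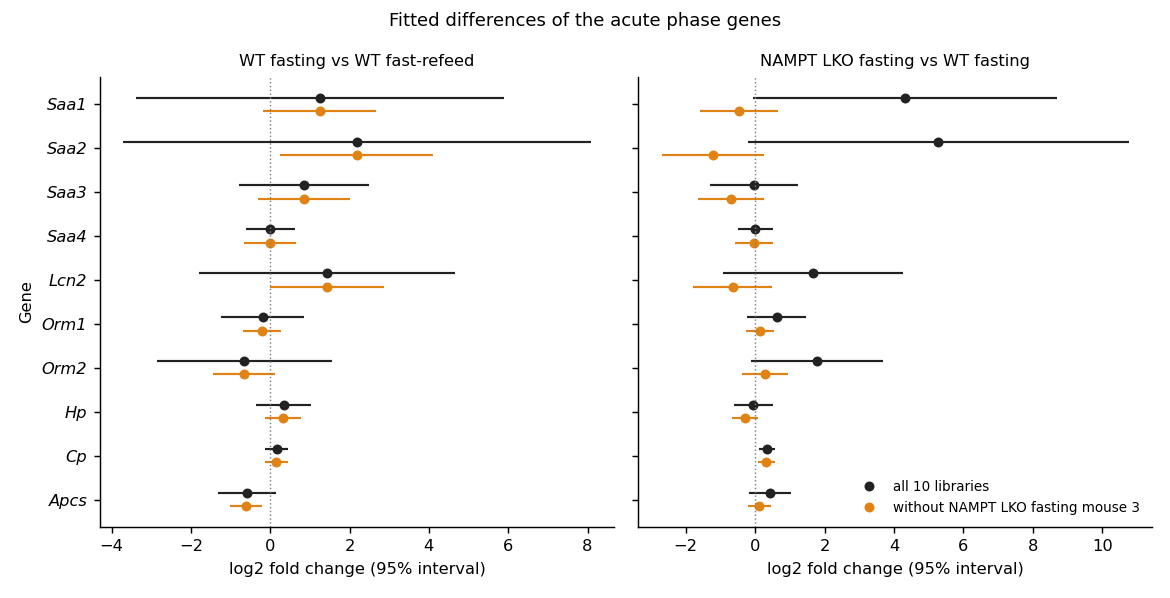
Log2 fold changes (x axes, points) with 95% intervals (lines) of the 10 acute phase genes (y axis) in WT fasting over WT fast-refeed livers (left) and NAMPT LKO fasting over WT fasting livers (right), from all 10 libraries and without NAMPT LKO fasting mouse 3. Leaving out this mouse moves Saa1 from 4.31 to -0.46 and Saa2 from 5.28 to -1.22 in the right panel and narrows the intervals of Saa1 and Saa2 in both.

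Cp, which encodes the copper-carrying ferroxidase ceruloplasmin, was the gene with a small and even difference. It was at 1134, 996, 1187, 1039 and 1235 CPM in NAMPT LKO fasting mice 1 to 5, at 875, 882 and 876 CPM in WT fasting mice 1 to 3 and at 740 and 830 CPM in WT fast-refeed livers. All 5 NAMPT LKO livers lay above all 3 WT fasting livers, which lay above both WT fast-refeed livers. WT fasting and WT fast-refeed livers did not overlap for 49.7% of all genes. Cp was the 1 gene of the 10 without overlap between NAMPT LKO and WT fasting livers, against 3.99% of all genes.

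The log2 fold change of Cp in NAMPT LKO over WT fasting livers was 0.35 (SE 0.11, unadjusted p = 0.00702, adjusted p = 0.761, edgeR's quasi-likelihood test), and it was 0.33 without mouse 3. Over WT fast-refeed livers it was 0.51 (SE 0.12, adjusted p = 0.0244, edgeR's quasi-likelihood test). This was the 1 call among the 10 genes in that comparison, where 11.2% of all genes were called (4.65% higher and 6.58% lower), and it contrasts groups that differ in genotype and in feeding at once. Without NAMPT LKO fasting mouse 3 it was 0.48 (adjusted p = 0.0454, edgeR's quasi-likelihood test). The call was lost without either WT fast-refeed mouse, at log2 fold changes of 0.42 and 0.59 and adjusted p = 0.255 and 0.142 (edgeR's quasi-likelihood test), and the fold change was 0.42 to 0.59 under all alternatives run. Cp overlaps Hps3 on the opposite strand, and whether counting used strand is not given in the sources used here.

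The other members in NAMPT LKO fasting over WT fast-refeed livers did not pass the threshold, with log2 fold changes of 7.47 for Saa2 (adjusted p = 0.192), 5.56 for Saa1 (adjusted p = 0.200) and 3.11 for Lcn2 (adjusted p = 0.229) in edgeR's quasi-likelihood test. Without NAMPT LKO fasting mouse 3 these were 0.96, 0.78 and 0.79. The groups did not overlap for 1 of the 10 genes, Cp, against 33.5% of all genes.

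Of the 28 other positive acute phase genes, 5 were higher and 1 lower in that comparison by edgeR's quasi-likelihood test. The higher genes were Il1rn (log2 fold change 2.61), Lbp (0.75), Mt1 (2.73), Mt2 (3.22) and Pigr, the polymeric immunoglobulin receptor (0.72), and the lower gene was the serine protease inhibitor Serpina3m (-0.48). Mt2 and Serpina3m were named after their values were seen. These 6 calls fell to 0 without either WT fast-refeed mouse, when calls over all genes fell from 1510 to 347 and 227. Cebpd (1.60), Cebpb (1.01) and Jak2 (0.53) were higher among the signalling and transcription factor genes, Nfkbia was higher (0.97) and Bcl3 lower (-1.19) among the feedback targets, and Il22ra1 was higher (1.52) and Lifr lower (-0.70) among the receptors. Over these lists, 13 of 87 genes (14.9%) were called, against 11.2% of all genes. Both comparisons use the same WT fast-refeed libraries, so they are not independent.

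Between NAMPT LKO and WT fasting livers, 0 of the 28 other positive acute phase genes were called by edgeR's quasi-likelihood test, 1 had an unadjusted p under 0.05, and the median log2 fold change was 0.04. The lowest p on that list was that of Serpina3g, at a log2 fold change of -2.37 (SE 0.67, adjusted p = 0.761, edgeR's quasi-likelihood test), with 26.3 ± 35.8 CPM (SD, n = 3) in WT fasting and 5.11 ± 0.698 CPM (SD, n = 5) in NAMPT LKO livers. On the other lists the gene with the lowest p did not pass either, with log2 fold changes of -0.24 for Ttr, -2.15 for Tnf, 0.22 for Lifr, -0.43 for Cebpd, -2.45 for Socs1 and -1.20 for Fpr2. The larger of these rest on WT fasting mouse 3. Tnf and Socs1 passed the filter of 1 CPM through this liver alone, so their tests are no evidence of a difference between the groups. In deposited CPM, WT fasting mice 1 to 3 had 5.14, 5.95 and 68.7 for Serpina3g, 0.192, 0.236 and 1.15 for Tnf, 0.553, 0.236 and 5.87 for Socs1 and 0.433, 0.560 and 4.28 for Fpr2.

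Genes whose pattern over the 10 livers was most like that of the 10 acute phase genes were ranked by Pearson correlation with the mean of the standardised log2 values, among 9142 genes. Among the first 10 were Itih4 (r = 0.95), Itih3 (0.93), Fga (0.93), Prg4 (0.91), Cpb2 (0.88), Hc (0.86), Ifitm2 (0.85), Slc3a1 (0.84) and Ctsc (0.83). Each of these had its highest value in NAMPT LKO fasting mouse 3, and without this liver and WT fasting mouse 3, the farthest from the median of the mean, r was 0.08 for Itih4 and 0.37 to 0.73 for the others named, with Slc3a1 at 0.73 and Fga at 0.68. Without NAMPT LKO fasting mouse 3 alone, Slc3a1 was the 1 gene of these among the first 10 again.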

How the data were processed

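The authors aligned single 50-base reads of poly-A-selected liver RNA with STAR (version 2.5.1a per the labels) to GRCm38 and deposited counts per Ensembl gene from featureCounts (1.4.6-p5 per the labels). The study's methods describe uniquely aligned reads and other tool versions. The deposited CPM values were checked to be counts divided by the library total, and the deposited RPKM values to be CPM per kilobase of exon. RPKM was used for levels between genes only.

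Genes for rRNA and genes that reached 1 CPM in no library were left out. After TMM scaling, all 10 libraries entered a single quasi-likelihood model in edgeR 4.0.16 (R 4.3.3), with Benjamini-Hochberg adjustment over all 13444 genes and a threshold of 0.05. The study's methods used limma's voomWithQualityWeights (limma 3.58.1 here), which was an alternative, as were DESeq2 1.42.0, edgeR's exact test, other scalings and filters, and each library left out in turn. All 10 genes passed the filter. Total counts of at least 30603080 per library give the depth. The members and lists were chosen with earlier results of these data known. The other genes named were those called, at most 4 per list and comparison by lowest p, the gene of each list with the lowest p between NAMPT LKO and WT fasting livers, and those among the 10 most like the members, of which 1 is not reported here. Data were simulated for NAMPT LKO against WT fasting livers over 13444 genes, of which 200 were changed. The quasi-likelihood test recovered 62% of those changed by a log2 fold change of 1 and 92% at 2. It also made 12 false calls. Recovery of changes in the 10 acute phase genes themselves, whose standard errors differ widely, was not tested. Promoters were scanned with Python 3.11.15 and aligned with Biopython 1.88.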

Additional observations from a re-analysis of the deposited data

Results flagged for a closer look

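In NAMPT LKO fasting livers, 7 of 12 measures compared had 1 liver far from the other 4, where the gap to the nearest liver exceeded 0.71 of the whole range of the group. For independent and normally spread values chance gives this in about 1 of 20 groups, which is 0.6 of 12. That rate does not hold here, since the measures are related and not on a log scale. The genes were also chosen with earlier results of these data known, so the count is a description only. The liver was mouse 3 in each. The gap was 0.989 of the range for Saa1, 0.996 for Saa2, 0.871 for Saa3, 0.920 for Lcn2, 0.772 for Orm1 and 0.907 for Orm2, and 0.850 for the percent of counts on the 10 acute phase genes together. Apcs, at 0.704, and Hp, at 0.589, lay under the limit in the same liver.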

How the results depend on the processing

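Only 2 WT fast-refeed libraries were at hand, and the intervals of Saa1 and Saa2 were wider with NAMPT LKO fasting mouse 3. Over all genes, calls rose without NAMPT LKO fasting mouse 5, from 946 to 2231 in WT fasting over WT fast-refeed livers. In NAMPT LKO fasting over WT fast-refeed livers they rose from 1510 to 2835. Without mouse 3 in place of mouse 5 they were 805 and 1097. The cause of these changes and of those below was not tested. Between NAMPT LKO and WT fasting livers, 0 of the 10 acute phase genes were called under each alternative run, including the replicate block, where DESeq2 gave an adjusted p to 6 of the 10. Few genes of any kind were called in this comparison, 0.183% of all genes with DESeq2. Of 590 gene values under alternatives, 509 kept their direction and side of the threshold, 12 kept their direction with no adjusted p from DESeq2, and 62 changed sign, most of them values near 0. The count of acute phase genes called in NAMPT LKO fasting over WT fast-refeed livers fell from 1 to 0 with library size alone, with no filter, with a log2 fold change of 1 also required, with only the groups compared and without both mice numbered 3 (added after seeing the data), and ran from 0 to 1 over single libraries left out. In WT fasting over WT fast-refeed livers it rose from 0 to 1 with only the groups compared, where 12.6% of all genes were called. For the other positive acute phase genes, the count in WT fasting over WT fast-refeed livers was 4 of 28, where 7.04% of all genes were called. It was 8 with voomWithQualityWeights (24.8% of all genes) and 0 to 6 over libraries left out (0.798 to 16.7%). In NAMPT LKO fasting over WT fast-refeed livers it was 6, where 11.2% of all genes were called. It was 9 with DESeq2 (16.8%) and with voomWithQualityWeights (31.8%). It was 3 with a log2 fold change of 1 required and 0 to 8 over libraries left out (1.69 to 21.2%).

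Among log2 fold changes, Saa4 turned negative in WT fasting over WT fast-refeed livers under DESeq2 (-0.0058), its size factors (-0.0058), filterByExpr (-0.0085), library size alone (-0.067), no filter (-0.015) and only the groups compared (-0.013). In NAMPT LKO fasting over WT fast-refeed livers Saa4 was -0.0028, -0.0028, -0.0062, -0.098, -0.021 and -0.0045 under the same settings in that order, and -0.11 with voomWithQualityWeights. In NAMPT LKO over WT fasting livers it was -0.030 with library size alone, -0.0055 with no filter and -0.13 with voomWithQualityWeights, where Saa3 was 0.49. Without both mice numbered 3, WT fasting over WT fast-refeed gave -0.026 for Saa3 and -0.045 for Saa4. NAMPT LKO over WT fasting then gave -0.23 for Saa1, -0.12 for Saa2, 0.17 for Saa3 and -0.12 for Lcn2. NAMPT LKO fasting over WT fast-refeed gave -0.044 for Saa4, -0.065 for Orm1 and -0.37 for Orm2.

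With single libraries left out, NAMPT LKO over WT fasting ran from -0.46 to 4.63 for Saa1, -1.22 to 6.38 for Saa2, -0.70 to 0.84 for Saa3, -0.14 to 0.15 for Saa4, -0.64 to 2.19 for Lcn2 and -0.29 to 0.070 for Hp. NAMPT LKO fasting over WT fast-refeed ran from -0.083 to 0.15 for Saa4, -0.066 to 0.59 for Orm1 and -0.37 to 1.37 for Orm2. WT fasting over WT fast-refeed ran from -0.026 to 1.22 for Saa3 and -0.12 to 0.14 for Saa4.

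The replicate numbers 1 to 3 are shared by NAMPT LKO and WT fasting mice, and the labels do not say whether a number links animals. Deviations of same-numbered livers correlated at 0.10, 0.18 and 0.13, and each library correlated best with its own number. In libraries 1 to 3, the fit with the replicate block gave 0.26 for Saa3, -0.24 for Saa4 and 0.079 for Hp, and the fit without the block gave 0.29, -0.20 and 0.15, with 0 of 10 genes called in both.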
